A study of Homo sapiens with 24 samples.

Results

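NFIL3, TEF, DBP, CSNK1D and CSNK1E were followed across 24 arrays of AC16 cells, a human cell line. They were chosen by name as output transcription factors and casein kinases of the circadian clock. The platform annotation gives them 57 probe sets of the Affymetrix Human Gene 2.0 ST array, 4 to NFIL3, 10 to TEF, 6 to DBP, 16 to CSNK1D and 21 to CSNK1E. They are 5 of the 22260 genes measured by probe sets with 1 symbol. All cells had been synchronized with 100 nM dexamethasone, a synthetic glucocorticoid, for 2 h and washed. The 8 groups of 3 arrays were untreated cells at T0, cells at T4 with vehicle, 0.5 µM digoxin or 5 µM digoxin, untreated cells at T16, and cells at T20 with vehicle, 0.5 µM digoxin or 5 µM digoxin. Digoxin is a cardiac glycoside that inhibits the sodium pump. The sample labels place the T20 treated cells 4 h after treatment, whereas the growth protocol gives lysis 4, 16 and 20 h after it, so the exposure at T20 is not settled here. All cells came from 1 line, and no label says that the arrays of a group came from separate cultures, so p-values measure the spread between these arrays, which may be technical.

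The molecular clock is a loop in which CLOCK and BMAL1 switch on the PER and CRY genes through E-boxes and the PER and CRY proteins then repress CLOCK and BMAL1. DBP and TEF are PAR bZIP activators that bind the D-box, NFIL3 (also called E4BP4) is a bZIP repressor that binds the same element, and together they carry the rhythm to output genes. CSNK1D and CSNK1E encode casein kinase 1 delta and epsilon, which phosphorylate the PER proteins and so set their stability and the speed of the clock. DBP is a classic direct E-box target, and NFIL3 is driven in many tissues through elements bound by ROR activators and REV-ERB repressors.

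The 250 bases before the annotated transcription start are shown for the 3 output factors, whose levels moved most between times, as the place to look for the elements through which the clock is known to act. Sequences are from RefSeq (GRCh38.p14), which matched 4 of the 5 members (CSNK1D was not matched), and are written 5′ to 3′ on the gene's strand. Capitals mark matches to 4 motifs searched on both strands: the E-box CACGTG, the D-box written as TTANNTAA, the glucocorticoid response core ACANNNTGT and the ROR element core AGGTCA. On the opposite strand the last of these reads as TGACCT, and the other three read the same on both strands.
TEF, first promoter, chr22:41367205-41367454, plus strand: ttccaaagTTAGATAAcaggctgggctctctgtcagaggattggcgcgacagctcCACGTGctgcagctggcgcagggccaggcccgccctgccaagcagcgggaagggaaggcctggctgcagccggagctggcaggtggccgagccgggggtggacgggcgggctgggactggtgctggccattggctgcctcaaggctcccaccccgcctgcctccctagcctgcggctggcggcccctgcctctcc
TEF, second promoter, chr22:41381692-41381941, plus strand: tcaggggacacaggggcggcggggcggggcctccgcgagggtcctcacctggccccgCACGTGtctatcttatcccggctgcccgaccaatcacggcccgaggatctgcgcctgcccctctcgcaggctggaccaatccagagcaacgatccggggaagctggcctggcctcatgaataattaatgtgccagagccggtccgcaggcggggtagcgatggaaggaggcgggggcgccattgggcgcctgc
NFIL3, second promoter, chr9:91423833-91424082, minus strand: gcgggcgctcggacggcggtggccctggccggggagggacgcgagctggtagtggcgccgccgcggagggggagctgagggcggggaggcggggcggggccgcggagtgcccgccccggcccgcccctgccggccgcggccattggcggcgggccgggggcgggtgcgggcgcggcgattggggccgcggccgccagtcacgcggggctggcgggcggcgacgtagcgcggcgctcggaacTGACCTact
DBP, chr19:48637380-48637629, minus strand: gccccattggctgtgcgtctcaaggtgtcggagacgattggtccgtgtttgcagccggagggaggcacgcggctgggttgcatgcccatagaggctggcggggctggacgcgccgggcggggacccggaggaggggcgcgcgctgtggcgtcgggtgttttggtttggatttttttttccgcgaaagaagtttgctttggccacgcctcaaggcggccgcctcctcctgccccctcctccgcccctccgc
Both TEF windows held CACGTG, 195 to 190 bases before the start in the first and 193 to 188 in the second, and the first also held TTAGATAA, 242 to 235 bases before it. The second NFIL3 window held TGACCT 9 to 4 bases before the start, and the first NFIL3 window (chr9:91424627-91424876) held none of the 4 motifs. The DBP window held none of them either. Of the 2 CSNK1E windows, the first (chr22:38318085-38318334) held TGACCT 160 to 155 bases before the start and the second held none. No 2 of these matches overlapped. Among 35116 promoters of the same length, 6.34% held CACGTG, 5.23% TTANNTAA, 12.1% AGGTCA and 4.61% ACANNNTGT. A match is a description of the letters and not a bound site, and its absence says only that these letters are not in the window.

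The gene values were log2 Robust Multi-array Average (RMA) values summarised over a gene's probe sets after quantile normalization. A difference is reported as changed where the limma test across 11764 genes gave a Benjamini-Hochberg adjusted p under 0.05. Array medians of the deposited values ran from 6.25 to 6.38, replicate arrays correlated at 0.992 to 0.995 across genes, and deposited values reached 19.9, so levels are on the authors' scale. Of 17 cardiomyocyte marker genes 2 (GATA4 and ATP2A2) reached the level needed for testing, and TNNT2, MYH6 and MYH7 did not, whereas all 10 fibroblast markers did. Of the markers with a gene value, 1 of 4 endothelial, 3 of 5 smooth muscle and 0 of 3 leukocyte markers did. The mean log2 level over a list varied between groups from 4.97 to 5.14 for the cardiomyocyte markers, from 11.6 to 12.6 for the fibroblast markers, from 4.89 to 5.16 for the endothelial, from 7.14 to 7.53 for the smooth muscle and from 4.43 to 4.59 for the leukocyte markers. In bulk RNA, fewer cells of a type and less RNA per cell cannot be told apart. The 24 poly-A controls, transcripts added to the RNA in fixed amounts, read on average 0.15 higher (log2) than in vehicle under 0.5 µM and 0.23 higher under 5 µM digoxin at T4, and 0.34 and 0.72 higher at T20, where the single controls ranged from 0.27 to 1.74 under 5 µM. The 18 hybridization controls of the arrays also read higher on average, by 0.11 under 0.5 µM and 0.13 under 5 µM digoxin at T4. At T20 they read 0.14 and 0.32 higher, where single ones ranged from -0.068 to 0.86 under 5 µM. After quantile normalization their group means ran only from 5.81 (T20 vehicle) to 6.13 (5 µM at T20), below the array medians. At so low a level their shifts may not follow the hybridization signal. How much of the poly-A shift was array signal was not tested. Scaling the arrays on the poly-A controls lowered the median of all genes under 5 µM at T20 to -0.72, and raised it to 0.44 between T16 and T20 vehicle. Directions given here are relative to the array's other genes, and a sign that turns on the control scale is given with the value. Whether the amount of RNA per cell changed was not tested.

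Digoxin changed between 1 and 4 of the 5 members, depending on dose and time. Under 0.5 µM at T4, CSNK1E was the 1 member that changed, upward, where 9.76% of all tested genes changed (5.21% higher and 4.55% lower). Under 5 µM at T4, NFIL3 and CSNK1E rose, against 22.1% of tested genes changed (9.18% higher and 12.9% lower). Under 0.5 µM at T20, NFIL3 and CSNK1E rose, against 10.8% changed (5.98% higher and 4.79% lower). Under 5 µM at T20, NFIL3, TEF and CSNK1E were higher and CSNK1D lower, against 26.1% changed (12.9% higher and 13.2% lower); on the poly-A control scale TEF and CSNK1E turn to lower in this comparison. Between times without digoxin, NFIL3, TEF and DBP fell from T0 to T4 vehicle, where 17.5% of tested genes changed (8.59% higher and 8.94% lower). NFIL3, TEF, CSNK1D and CSNK1E fell from T0 to T16, where 31.6% changed (14.9% higher and 16.7% lower). NFIL3 fell and TEF and CSNK1D rose from T16 to T20 vehicle, where 22.8% changed (11.3% higher and 11.5% lower). TEF and DBP were higher and CSNK1E lower in T20 vehicle than in T4 vehicle, where 14.1% changed (6.66% higher and 7.42% lower). The comparisons with one vehicle group share its arrays, as do comparisons that share T0 or T16. Cells at T0 and T16 had received no vehicle. Here and below, a change from T0 to T4 vehicle therefore mixes elapsed time with the addition of vehicle. The same holds for a change from T16 to T20 vehicle. The part of vehicle in these changes was not tested. T0 and T16 were both untreated, and the T4 and T20 vehicle groups both had vehicle, so these pairs were alike in this. Because the exposure at T20 is not settled, the T4 and T20 vehicle groups may still differ in the time since vehicle.

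**Figure D1:**
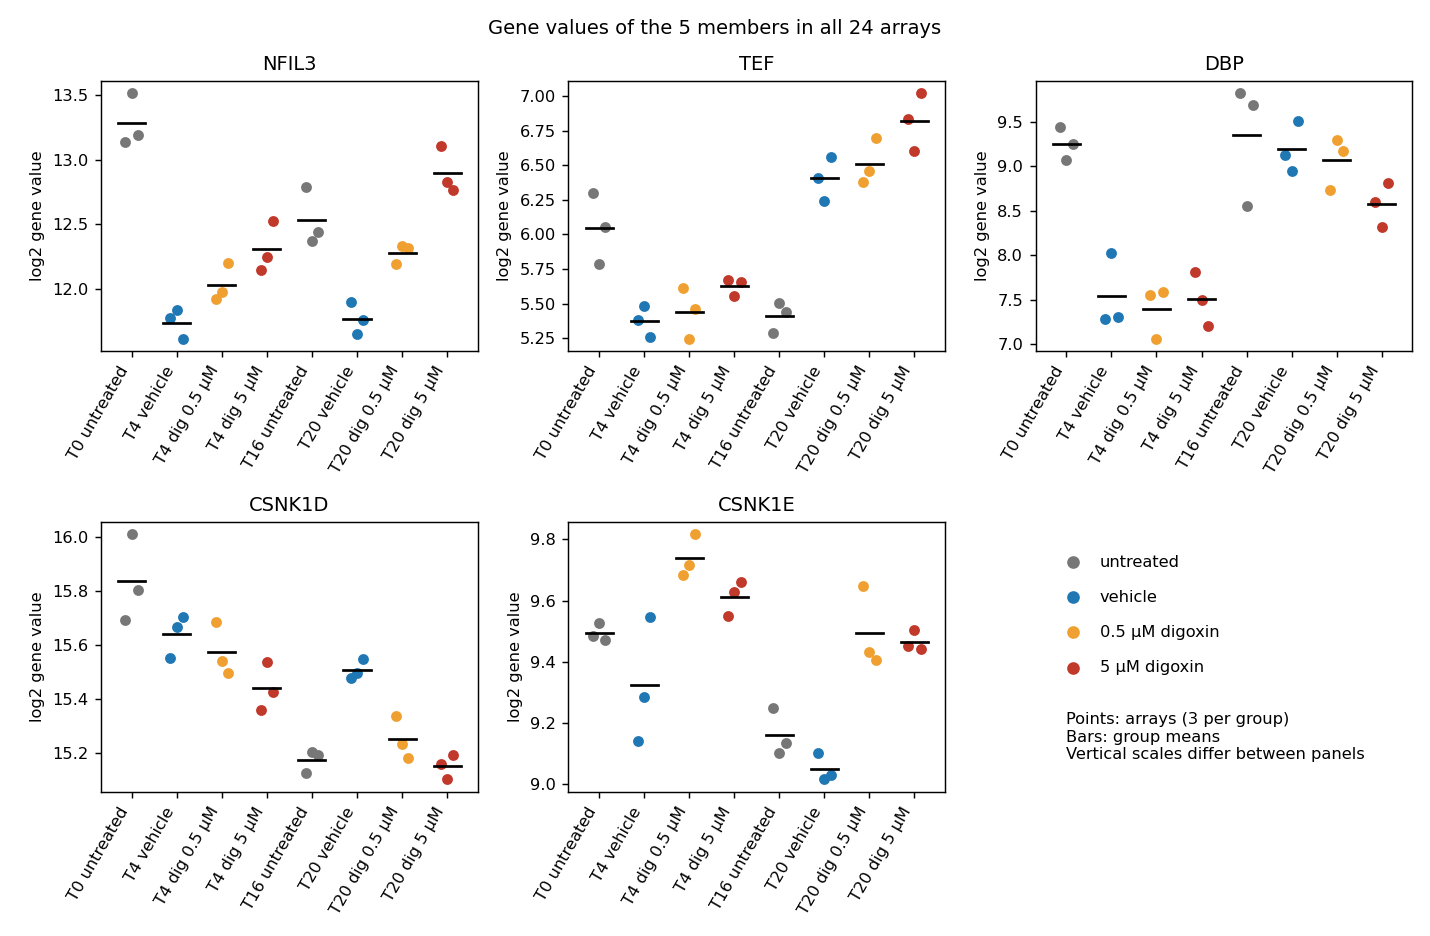
Gene values (log2) of the 5 members in all 24 arrays, with groups along the horizontal axis, points for the 3 arrays of a group and bars for group means; vertical scales differ between panels. NFIL3 is highest at T0 (13.28) and stands higher in each digoxin group than in its vehicle, DBP is near 7.5 in the 3 groups at T4 and above 8.3 elsewhere, and CSNK1D spans only 0.69 between its highest and lowest group means.

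NFIL3, the repressor, rose under digoxin in 3 of the 4 comparisons with vehicle. It read 11.78, 11.84 and 11.62 in the 3 T4 vehicle arrays, 11.92, 11.98 and 12.20 under 0.5 µM, and 12.15, 12.25 and 12.53 under 5 µM. At T20 it read 11.91, 11.65 and 11.76 with vehicle, 12.19, 12.34 and 12.32 under 0.5 µM, and 13.10, 12.83 and 12.77 under 5 µM. No digoxin array of either dose lay among the vehicle arrays of its time. The rise was 0.57 ± 0.13 (log2 difference ± SE, n = 3 against 3, adjusted p = 0.00467) under 5 µM at T4 and 1.12 ± 0.13 (adjusted p = 4.4e-06) under 5 µM at T20. Under 0.5 µM it was 0.51 ± 0.13 at T20 (adjusted p = 0.0188), and the 0.29 ± 0.13 at T4 did not pass (adjusted p = 0.194). On the poly-A control scale all 4 differences stayed positive but only that under 5 µM at T20 passed. The call under 0.5 µM at T20 was lost in 4 of the 6 fits that left out 1 array, with adjusted p from 0.0231 to 0.0796.

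NFIL3 passed the comparison of the doses at T20, a call that depends on the scale and on the summary over probe sets. The 5 µM arrays at T20 were 0.62 ± 0.13 above the 0.5 µM arrays (adjusted p = 0.016), a comparison in which 2.46% of tested genes changed (1.22% higher), and this call was lost without 0.5 µM replicate 1 (adjusted p = 0.0717) or without 5 µM replicate 1 (adjusted p = 0.0988). It was also lost with the mean (0.60, adjusted p = 0.0607) and the median (0.53, adjusted p = 0.19) over probe sets and with only the groups compared in the fit (adjusted p = 0.147). On the poly-A control scale NFIL3 differed by 0.23 between the doses (adjusted p = 0.172), while DBP (-0.89, adjusted p = 0.0218), CSNK1D (-0.47, adjusted p = 0.0206) and CSNK1E (-0.46, adjusted p = 0.0183) passed as lower under 5 µM. The poly-A controls averaged 12.14 under 5 µM and 11.75 under 0.5 µM at T20, so this scale lowers every gene under 5 µM. Far more genes passed this comparison there than on the main scale, as counted in the last section. These calls therefore do not by themselves set the members apart from other genes. At T4 the dose difference was 0.28 ± 0.13 (adjusted p = 0.43), with 0 of the 5 members passing where 0.442% of tested genes did, and 0 at an unadjusted p under 0.05. The response to 5 µM was 0.56 ± 0.19 larger at T20 than at T4, which did not pass the test of that difference (95% interval 0.16 to 0.95, adjusted p = 0.238). No member passed either test between T20 and T4 in limma, where 0.57% of tested genes did for 5 µM and 0.0085% for 0.5 µM, and 1 member, NFIL3 at 5 µM, had an unadjusted p under 0.05.

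Without digoxin NFIL3 was highest right after the dexamethasone pulse, at 13.14, 13.51 and 13.19 at T0. It fell by 1.53 on the log2 scale to T4 vehicle (SE 0.13, adjusted p = 1.04e-07). Untreated T16 cells read 12.79, 12.37 and 12.44, lower than T0 by 0.75 ± 0.13 (adjusted p = 0.000274), and T20 vehicle was lower than T16 by 0.76 ± 0.13 (adjusted p = 0.000408; adjusted p = 0.0786 on the poly-A control scale). T20 vehicle and T4 vehicle differed by 0.03 ± 0.13 (95% interval -0.25 to 0.31). In the order of group means, from T0 (13.28) through 5 µM at T20 (12.90), T16 (12.53), 5 µM at T4 (12.31), 0.5 µM at T20 (12.28), 0.5 µM at T4 (12.03) and T20 vehicle (11.77) to T4 vehicle (11.74), the arrays of neighbouring groups overlapped except between T0 and 5 µM at T20 and between 0.5 µM at T4 and T20 vehicle. All 4 probe sets of the gene were higher under 5 µM than in vehicle at T20, by 0.79 to 1.77, and 2 of them passed over all probe sets. All 4 were lower in T4 vehicle than at T0, with differences from -2.10 to -1.35, and 3 passed, where 1.86% and 0.589% of all probe sets did in these 2 comparisons.

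TEF, one of the D-box activators, read near the filter value and differed between times. It read 5.38, 5.48 and 5.26 in T4 vehicle and 5.29, 5.51 and 5.44 at T16, and 6.41, 6.24 and 6.56 in T20 vehicle. At T0 it read 6.30, 5.79 and 6.06. All T20 vehicle arrays stood above all T16 and T4 vehicle arrays. TEF rose by 1.00 ± 0.14 from T16 to T20 vehicle (adjusted p = 3.49e-05) and stood 1.03 ± 0.14 higher in T20 than in T4 vehicle (adjusted p = 4.07e-05). It fell by 0.67 from T0 to T4 vehicle (SE 0.14, adjusted p = 0.00169; lost with the median over probe sets, adjusted p = 0.128) and by 0.64 from T0 to T16 (SE 0.14, adjusted p = 0.00129). Its group means reached the filter value of 6.00 in 4 of the 8 groups, T0 and the 3 at T20, so it was tested because of the groups where it was high.

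Under digoxin TEF differed from vehicle by 0.07 to 0.42. The T20 arrays read 6.38, 6.46 and 6.70 under 0.5 µM and 6.84, 6.60 and 7.02 under 5 µM. The 5 µM arrays lay just above the vehicle arrays, whose highest was 6.56, and the 0.5 µM arrays overlapped both. The 5 µM difference of 0.42 ± 0.14 passed (adjusted p = 0.0293), but not in the fit without the filter (adjusted p = 0.0669), and on the poly-A control scale it turned to -0.27. That call was also lost in 4 of the 6 fits without 1 array, with adjusted p from 0.0143 to 0.131. At T4 the arrays read 5.61, 5.25 and 5.46 under 0.5 µM and 5.67, 5.56 and 5.66 under 5 µM, and the difference under 5 µM was 0.26 ± 0.14 (adjusted p = 0.2). The 0.5 µM differences were 0.07 ± 0.14 at T4 (adjusted p = 0.827) and 0.11 ± 0.14 at T20 (adjusted p = 0.69), and turned to -0.049 and -0.22 on the poly-A control scale. In the order of levels, 5 µM at T20, 0.5 µM at T20, T20 vehicle and T0 overlapped each with the next, and T0 stood apart from the 4 groups with means from 5.37 to 5.63. Of its 10 probe sets 8 were higher in T20 than in T4 vehicle and 9 higher in T20 vehicle than at T16 (where 0.745% of all probe sets passed), and no single one passed in either comparison. Under 5 µM at T20, 7 of the 10 were higher than in vehicle, from -0.61 to 1.19.

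DBP, the other D-box activator, had the widest range of group means, 1.95 on the log2 scale, and no digoxin comparison passed. At T4 it read 7.28, 8.03 and 7.31 with vehicle, 7.55, 7.06 and 7.58 under 0.5 µM, and 7.81, 7.50 and 7.21 under 5 µM. All 9 of these arrays lay below all other arrays of the series. At T0 it read 9.45, 9.07 and 9.25, at T16 9.82, 8.55 and 9.69, and in T20 vehicle 9.13, 8.95 and 9.51. It fell by 1.71 from T0 to T4 vehicle (SE 0.28, adjusted p = 0.000279) and stood 1.65 ± 0.28 higher in T20 than in T4 vehicle (adjusted p = 0.000587). T16 differed from T0 by 0.10 ± 0.28 (95% interval -0.49 to 0.69, adjusted p = 0.827), which turned to -0.15 on the poly-A control scale. Replicate 2 at T16 stood apart from the other two, and without it that difference was 0.50, which did not pass.

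At T20 DBP read 8.73, 9.30 and 9.17 under 0.5 µM and 8.60, 8.32 and 8.81 under 5 µM. The 5 µM arrays lay below all vehicle arrays, and the 0.5 µM arrays overlapped both groups. The 5 µM difference was -0.62 ± 0.28 (95% interval -1.21 to -0.027) and missed the threshold (adjusted p = 0.116); it passed on the poly-A control scale (-1.32, adjusted p = 0.000417) and with the median over probe sets (-0.94, adjusted p = 0.0443). The differences under 0.5 µM at T20 (-0.13 ± 0.28, adjusted p = 0.833), 0.5 µM at T4 (-0.14 ± 0.28, adjusted p = 0.819) and 5 µM at T4 (-0.04 ± 0.28, adjusted p = 0.949) were smaller than their errors. In the order of levels, T16, T0, T20 vehicle, 0.5 µM at T20 and 5 µM at T20 each overlapped the next, a gap of 1.04 between group means followed, and the 3 T4 groups overlapped. All 6 probe sets were lower in T4 vehicle than at T0 (2 passed), all 6 were higher in T20 than in T4 vehicle (2 passed, where 0.308% of all probe sets did), and all 6 were lower under 5 µM than with vehicle at T20 (0 passed), with differences from -1.53 to -0.089.

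**Figure D2:**
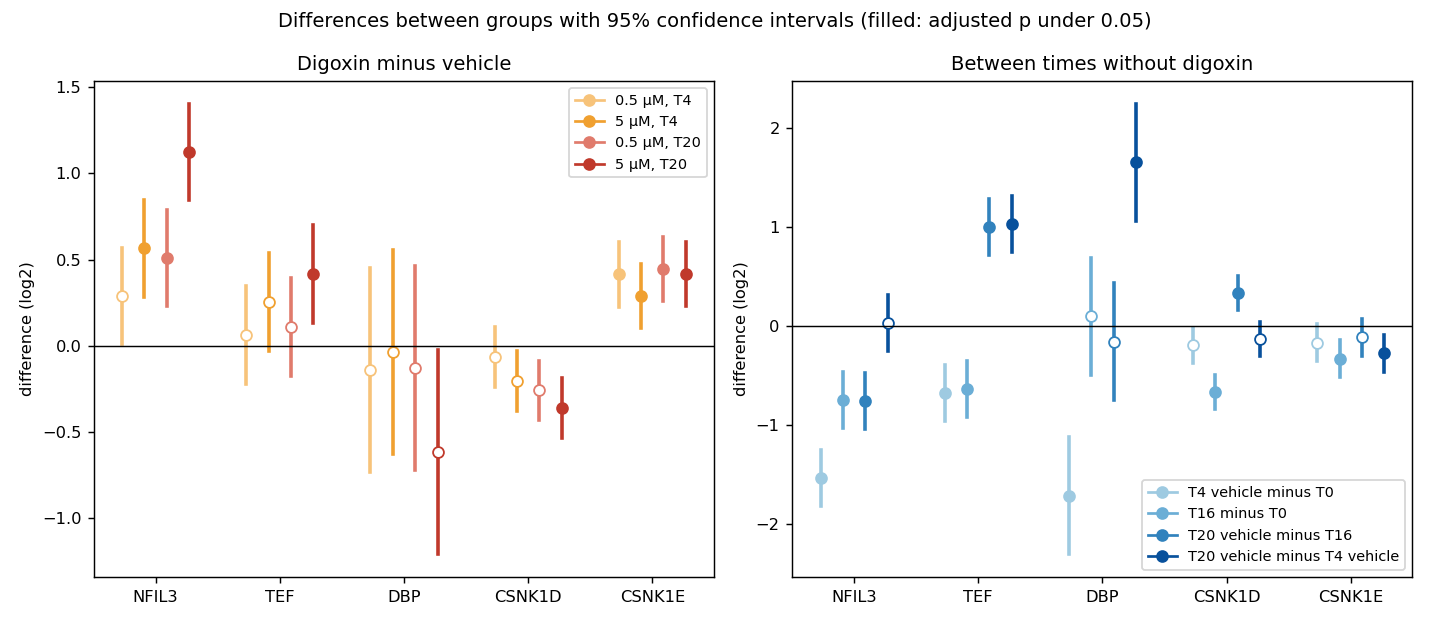
Log2 differences of the 5 members between groups, with points for estimates, lines for 95% confidence intervals and filled points where the adjusted p was under 0.05; digoxin against vehicle is on the left and times without digoxin on the right. NFIL3 and CSNK1E lie above 0 in all 4 digoxin comparisons (CSNK1E turns to -0.32 under 5 µM at T20 on the poly-A control scale), and TEF and DBP rise by 1.03 and 1.65 from T4 to T20 vehicle.

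CSNK1D, the delta kinase, fell from T0 to T16 and rose again to T20 vehicle, with group means within 0.69 of each other on the log2 scale. It read 15.69, 16.01 and 15.80 at T0, 15.12, 15.20 and 15.19 at T16, and 15.48, 15.50 and 15.55 in T20 vehicle. The 3 groups did not overlap. It fell by 0.66 from T0 to T16 (SE 0.08, adjusted p = 5.31e-06) and rose by 0.34 ± 0.08 from T16 to T20 vehicle (adjusted p = 0.00615). That rise was 0.28 with the mean (adjusted p = 0.0696) and 0.13 with the median over probe sets (adjusted p = 0.722), and passed with neither. T4 vehicle, at 15.55, 15.67 and 15.70, was 0.20 ± 0.08 below T0 (adjusted p = 0.114), and T20 vehicle was 0.13 ± 0.08 below T4 vehicle (adjusted p = 0.313), which turned to 0.030 on the poly-A control scale.

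With digoxin at T20, CSNK1D read 15.33, 15.23 and 15.18 under 0.5 µM and 15.16, 15.10 and 15.19 under 5 µM, all below the vehicle arrays. It fell by 0.36 under 5 µM (SE 0.08, adjusted p = 0.00327), a call that was lost with the mean (adjusted p = 0.0639) or the median (adjusted p = 0.561) over probe sets. Under 0.5 µM it was 0.26 ± 0.08 lower (adjusted p = 0.0514). At T4 it read 15.68, 15.54 and 15.50 under 0.5 µM and 15.36, 15.54 and 15.42 under 5 µM, with differences of -0.07 ± 0.08 (adjusted p = 0.685) and -0.20 ± 0.08 (adjusted p = 0.0899). In the order of levels, T0, T4 vehicle, 0.5 µM at T4, T20 vehicle and 5 µM at T4 overlapped each with the next, and these stood apart from 0.5 µM at T20, T16 and 5 µM at T20. Of 16 probe sets, 13 were lower under 5 µM than with vehicle at T20 and 3 were higher, over a range from -0.67 to 0.92, and none passed alone.

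CSNK1E rose under both doses at both times, by 0.29 to 0.45 on the log2 scale. At T4 it read 9.14, 9.28 and 9.55 with vehicle, 9.68, 9.72 and 9.82 under 0.5 µM, and 9.55, 9.63 and 9.66 under 5 µM. At T20 it read 9.10, 9.02 and 9.03 with vehicle, 9.65, 9.43 and 9.41 under 0.5 µM, and 9.45, 9.50 and 9.44 under 5 µM. Every digoxin array was above the vehicle arrays of its time, with vehicle replicate 3 at T4 next to the lowest 5 µM array. The rise was 0.41 ± 0.09 under 0.5 µM (adjusted p = 0.00531) and 0.29 ± 0.09 under 5 µM (adjusted p = 0.0262) at T4, and 0.45 ± 0.09 (adjusted p = 0.00271) and 0.42 ± 0.09 (adjusted p = 0.00183) at T20. These directions depend on the scale: on the poly-A control scale the differences were 0.27, 0.05, 0.14 and -0.32 in the same order, and only the last passed (adjusted p = 0.045), as a fall. With the median over probe sets 0 of the 4 differences passed, and that under 5 µM at T4 turned to -0.061. Without vehicle replicate 1, the rise under 5 µM at T4 was 0.20 (adjusted p = 0.153), and 4 of the 6 fits that left out 1 array lost that call.

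The 5 µM and 0.5 µM arrays of CSNK1E differed by -0.13 ± 0.09 at T4 (95% interval -0.31 to 0.06, adjusted p = 0.63) and by -0.03 ± 0.09 at T20 (95% interval -0.22 to 0.16, adjusted p = 0.914; on the control scale the latter passed, as given above). Without digoxin CSNK1E read 9.48, 9.53 and 9.47 at T0 and 9.25, 9.10 and 9.13 at T16. It fell by 0.33 from T0 to T16 (SE 0.09, adjusted p = 0.00764), and was lower in T20 than in T4 vehicle by 0.28 ± 0.09 (adjusted p = 0.0461), a call lost in 5 of the 6 fits without 1 array and on the poly-A control scale (-0.14, adjusted p = 0.634). T4 vehicle was 0.17 ± 0.09 below T0 (adjusted p = 0.214) and T20 vehicle 0.11 ± 0.09 below T16 (adjusted p = 0.4), the latter turning to 0.34 on the poly-A control scale (adjusted p = 0.0511). In the order of levels, 0.5 µM at T4 stood above 5 µM at T4, the groups from there to T16 overlapped each with the next, and T20 vehicle stood below T16. Its 21 probe sets were spread widely: under 5 µM at T20, 16 were higher and 5 lower than with vehicle, from -1.20 to 1.99, and none passed alone, where the median over probe sets gave 0.90 for the gene (adjusted p = 0.174).

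**Figure D3:**
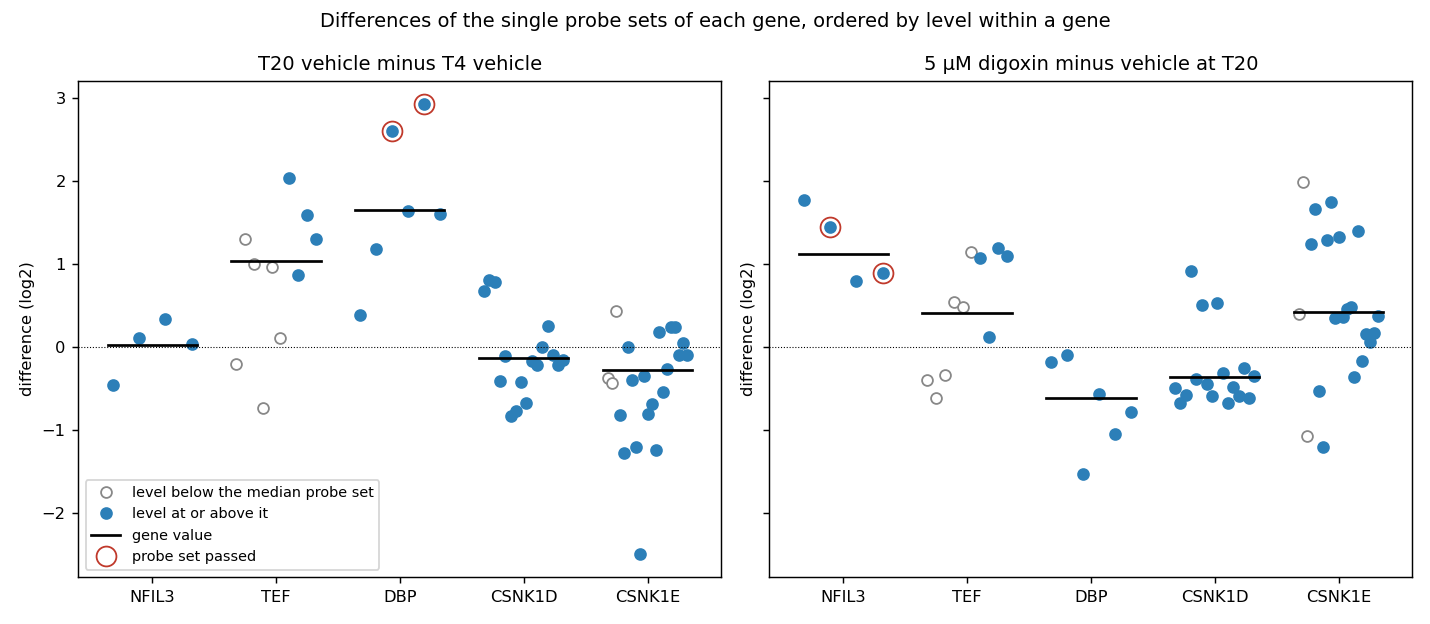
Log2 differences of the 57 single probe sets, ordered by level within each gene, for T20 against T4 vehicle (left) and 5 µM digoxin against vehicle at T20 (right); filled points are probe sets at or above the median level of all probe sets, rings mark those that passed, and bars are the gene's difference. All 6 DBP probe sets lie above 0 on the left and below 0 on the right, all 4 NFIL3 probe sets lie above 0 on the right, and the CSNK1E probe sets fall on both sides of 0.

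**Figure D4:**
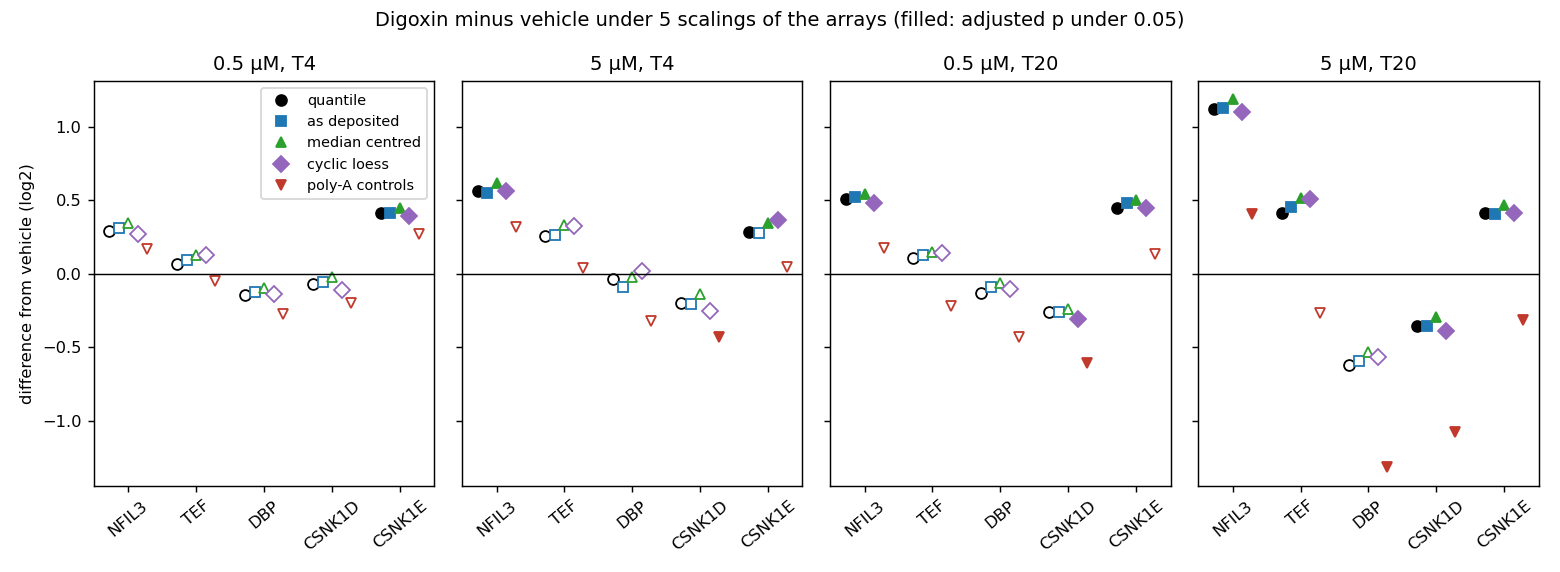
Log2 differences between digoxin and vehicle for the 5 members in the 4 digoxin comparisons under 5 scalings of the arrays; filled symbols passed an adjusted p under 0.05. Under 5 µM at T20 the poly-A control scale (downward triangles) lies below the other 4 scalings for all members, NFIL3 stays above 0, and TEF (-0.27) and CSNK1E (-0.32) turn below 0.

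Core clock genes changed in the same comparisons. Of 18 core clock genes 17 had a gene value and 15 were tested, and under 5 µM at T20, 7 were higher and 1 lower, where 12.9% of all tested genes were higher and 13.2% lower, with a median difference of 0.31 against -0.0056 over all tested genes. On the poly-A control scale 2 were higher and 8 lower, and the median was -0.36 against -0.72 over all tested genes. Most tested genes passed under 5 µM at T20 on that scale, as counted in the last section. Counts on the control scale, here and in the lists below, therefore do not by themselves set a list apart from other genes. NR1D1, the REV-ERB alpha repressor, rose by 3.48 ± 0.26 (adjusted p = 1.23e-08), PER1 by 2.63 ± 0.21 (adjusted p = 3.43e-08), BHLHE40, a repressor of CLOCK and BMAL1, by 0.99 ± 0.17 (adjusted p = 0.000281) and PER2 by 1.23 ± 0.24 (adjusted p = 0.000823), and all 4 kept their sign on the control scale. From T0 to T4 vehicle 1 core gene rose and 7 fell (8.59% and 8.94% of all tested genes), with a median of -0.53 against 0.0050 over all tested genes. From T0 to T16, 4 rose and 9 fell (14.9% and 16.7% of all). In T20 against T4 vehicle 6 were higher and 1 lower (6.66% and 7.42% of all), with NR1D2 (REV-ERB beta) 1.44 ± 0.12 higher (adjusted p = 1.33e-07), BHLHE40 1.94 ± 0.17 higher (adjusted p = 3.24e-07) and NR1D1 2.46 ± 0.26 higher (adjusted p = 3.01e-06).

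Of 16 genes listed as D-box or PAR bZIP targets, PER1, PER2, PER3, CRY1, NR1D1, NR1D2 and RORA are also in the core clock list. Calls on these genes repeat those counted above. Of the 16 genes 12 were tested, and under 5 µM at T20, 6 were higher and 3 lower, against 12.9% and 13.2% of all tested genes, with a median of 0.35. On the poly-A control scale 3 were higher and 6 lower, with a median of -0.38. Besides NR1D1 and PER1, KLF9, a glucocorticoid-induced zinc finger factor, rose by 1.52 ± 0.19 (adjusted p = 6.3e-06), and ALAS1, the first enzyme of haem synthesis, fell by 0.86 (SE 0.10, adjusted p = 4.42e-06). From T0 to T4 vehicle 0 rose and 6 fell (8.59% and 8.94% of all), with a median of -0.68, and in T20 against T4 vehicle 3 were higher and 1 lower (6.66% and 7.42% of all). Of 11 bZIP relatives 9 were tested. Under 5 µM at T20 their changed share was near the 26.1% of all tested genes (12.9% higher and 13.2% lower). Of the relatives tested, 3 were higher and 0 lower (1 and 6 on the control scale). These were CEBPD (1.47 ± 0.19, adjusted p = 1.49e-05), ATF3 (0.93 ± 0.17, adjusted p = 0.00037) and CEBPB (0.48 ± 0.17, adjusted p = 0.0422, turning to -0.24 on the control scale). HLF, the third PAR bZIP factor, was below the level needed for testing.

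Of 13 other casein kinase family genes 11 were tested, and under 5 µM at T20, 2 were higher and 1 lower. That share is near the 26.1% of all tested genes that changed (12.9% higher and 13.2% lower). The median of the list was 0.0031 against -0.0056 over all tested genes. VRK1 (0.50 ± 0.11, adjusted p = 0.00164) and TTBK2 (0.62 ± 0.15, adjusted p = 0.00441) were higher, and both turn negative on the poly-A control scale, where 0 members were higher and 9 lower. Most tested genes also passed on that scale, so this count and the control-scale counts below do not set these lists apart. CSNK2B, the regulatory subunit of casein kinase 2, fell by 0.21 (SE 0.06, adjusted p = 0.0217). CSNK1A1, which encodes casein kinase 1 alpha, differed by -0.22 ± 0.13 (adjusted p = 0.251). Of 20 genes that act on PER and CRY turnover 19 had a gene value and 17 were tested. Under 5 µM at T20, 4 were higher and 1 lower (0 and 13 on the control scale). That share is again near the 26.1% of all tested genes that changed (12.9% higher and 13.2% lower). The median of the list was 0.08 (-0.65 on the control scale). RBX1, a subunit of cullin ubiquitin ligases, rose by 1.01 ± 0.17 (adjusted p = 0.000249), and PPP2CB, a phosphatase 2A catalytic subunit, by 0.48 ± 0.08 (adjusted p = 0.00028, turning to -0.22 on the control scale). Of the 10 fibroblast markers, 0 changed under 5 µM at T20 (9 were lower on the poly-A control scale). Under 0.5 µM at T20, 1 was lower (4.79% of all tested genes). At T4, 2 were lower under 0.5 µM (4.55% of all), where CSNK1E rose, and 3 under 5 µM (12.9% of all), where NFIL3 and CSNK1E rose. Between times, 2 were higher in T4 vehicle than at T0 (8.59% of all). At T16, 7 were higher than at T0 (median 0.70, 14.9% of all), where 4 members fell. In T20 against T4 vehicle 7 were higher (median 0.72, 6.66% of all), where TEF and DBP were higher and CSNK1E lower. From T16 to T20 vehicle 2 rose and 1 fell (11.3% and 11.5% of all). The part of cell state in these differences was not tested.

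The genes whose 8 group means followed those of each member most closely, among 10828 named genes tested, were found by Pearson correlation, which is given as a description because the means share their arrays and scaling. For NFIL3 they were ISYNA1 (r = 0.974), RMRP (0.968) and TAB2 (0.963). For TEF they were FAM111B (0.973), BDKRB1 (0.970) and CHML (0.970). For DBP they were OSBPL2 (0.986), FBXL13 (0.984) and HINT3 (0.967). For CSNK1D they were GTF3C4 (0.983), MTMR12 (0.979) and TTC19 (0.975). For CSNK1E they were RPUSD4 (0.982), KGD4 (0.975) and BRD1 (0.963). Their ranges differed from the members': OSBPL2 spanned group means from 10.99 to 11.75 where DBP spanned 7.40 to 9.35, and ISYNA1 spanned 8.06 to 8.64 where NFIL3 spanned 11.74 to 13.28. The genes named head longer lists. Genes with r over 0.9 numbered 29 for NFIL3, 37 for TEF, 82 for DBP, 109 for CSNK1D and 71 for CSNK1E.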

How the data were processed

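Total RNA of AC16 cells was amplified, labelled and hybridised to 24 arrays, 1 per sample. The deposited log2 values are exon-level probe set values that the authors made by Robust Multi-array Average normalization in the GIANT tools, per the series design text; limma is named in the submitters' processing notes, and no source used here states versions, background method or genome build. Of 352859 probe sets, 259224 had 1 gene symbol, 13116 several and 80519 none, and 1726 symbols were updated through RefSeq. Because array medians differed by 0.13, values were quantile normalized, and a median polish over a gene's probe sets gave its value. A gene entered the test if at least 1 group mean reached 6.00, the median of the gene values, which left 11764 of 22260. One limma model (3.58.1, R 4.3.3) with 8 group means and 16 residual degrees of freedom gave 12 comparisons with Benjamini-Hochberg adjustment over all genes tested. Its test was checked on simulated data whose probe sets varied independently and whose arrays had no scale shift. Noise shared by a gene's probe sets and shifts in scale were not covered. Intervals cover 95%, and the number of arrays, 3 per group, limits the precision.

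The members and lists were chosen with earlier results of these data known. All 5 members are given in every array, with counts per list, at most 4 named genes per list and comparison, taken by adjusted p, and, for each member whose group means ranged over 0.5 or more, the 3 tested genes with the most similar group means; CSNK1A1, HLF and the marker genes named were added outside this rule after their values were seen. A planned limma test of unequal change among a gene's probe sets is not reported: on simulated data with the spreads of these probe sets it called more unchanged genes than its threshold allows, and it kept to the threshold only where all probe sets of a gene were given 1 spread. Alternatives were other scalings, summaries, filters, models and each array left out. Promoters were searched with pandas 2.3.3.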

Additional observations from a re-analysis of the deposited data

How the results depend on the processing

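Of 768 values of the 5 members under alternatives other than a left-out array, 685 kept their direction and side of the threshold, among them all values with arrays centred on the median gene value. The alternative with probe sets of several symbols gave no separate value, because 0 such probe sets list a member, and TEF was not tested under the stricter filter. With values as deposited, CSNK1E (0.28 for 5 µM at T4) no longer passed. With cyclic loess, CSNK1E (-0.24 for T20 against T4 vehicle) no longer passed. There, CSNK1D (-0.31 for 0.5 µM at T20) now passed. There, DBP (0.022 for 5 µM at T4) changed sign. With arrays centred on the poly-A controls, CSNK1E (0.27 for 0.5 µM at T4, 0.048 for 5 µM at T4, 0.14 for 0.5 µM at T20, -0.14 for T20 against T4 vehicle) and NFIL3 (0.32 for 5 µM at T4, 0.18 for 0.5 µM at T20, 0.23 for the doses at T20, -0.30 for T20 vehicle against T16) no longer passed. There, CSNK1D (-0.43 for 5 µM at T4, -0.61 for 0.5 µM at T20, -0.47 for the doses at T20), DBP (-1.32 for 5 µM at T20, -0.89 for the doses at T20) and CSNK1E (-0.46 for the doses at T20) now passed. There, TEF (-0.049 for 0.5 µM at T4, -0.22 for 0.5 µM at T20, -0.27 for 5 µM at T20, -0.052 for the doses at T20, -0.17 for 0.5 µM between T20 and T4, -0.31 for 5 µM between T20 and T4), CSNK1E (-0.32 for 5 µM at T20, -0.13 for 0.5 µM between T20 and T4, -0.36 for 5 µM between T20 and T4, 0.34 for T20 vehicle against T16), DBP (-0.045 for the doses at T4, -0.16 for 0.5 µM between T20 and T4, -0.15 for T16 against T0, 0.27 for T20 vehicle against T16) and CSNK1D (0.030 for T20 against T4 vehicle) changed sign. With the mean over probe sets, CSNK1E (0.23 for 5 µM at T4), CSNK1D (-0.28 for 5 µM at T20, 0.28 for T20 vehicle against T16) and NFIL3 (0.60 for the doses at T20) no longer passed. There, DBP (0.025 for 5 µM at T4, -0.19 for 0.5 µM between T20 and T4, -0.052 for T16 against T0, 0.13 for T20 vehicle against T16) changed sign. With the median over probe sets, CSNK1E (0.44 for 0.5 µM at T4, 0.60 for 0.5 µM at T20, 0.90 for 5 µM at T20, -0.32 for T16 against T0, -0.67 for T20 against T4 vehicle), NFIL3 (0.56 for 0.5 µM at T20, 0.53 for the doses at T20), CSNK1D (-0.19 for 5 µM at T20, 0.13 for T20 vehicle against T16) and TEF (-0.49 for T4 vehicle against T0) no longer passed. There, DBP (-0.94 for 5 µM at T20) now passed. There, DBP (0.11 for 0.5 µM at T4, -0.22 for the doses at T4, -0.79 for 0.5 µM between T20 and T4, -0.46 for T16 against T0, 0.74 for T20 vehicle against T16), CSNK1D (0.014 for 0.5 µM at T4, 0.041 for 5 µM between T20 and T4), CSNK1E (-0.061 for 5 µM at T4, 0.30 for the doses at T20) and TEF (-0.042 for the doses at T4) changed sign. With only probe sets above the median, CSNK1D (-0.26 for 0.5 µM at T20) now passed. There, TEF (-0.21 for 0.5 µM at T4) changed sign. Without the filter, CSNK1E (0.29 for 5 µM at T4, -0.28 for T20 against T4 vehicle) and TEF (0.42 for 5 µM at T20) no longer passed. With the stricter filter, CSNK1D (-0.26 for 0.5 µM at T20) now passed. With the replicate block, CSNK1E (-0.28 for T20 against T4 vehicle) no longer passed. With a trended and robust variance prior, CSNK1E (0.29 for 5 µM at T4, -0.28 for T20 against T4 vehicle) and TEF (0.42 for 5 µM at T20) no longer passed. There, CSNK1D (-0.26 for 0.5 µM at T20) now passed. With array weights, CSNK1D (-0.21 for 5 µM at T4, -0.25 for 0.5 µM at T20) now passed. There, DBP (-0.0082 for 0.5 µM between T20 and T4) changed sign. With only the groups compared in the fit, CSNK1E (0.41 for 0.5 µM at T4, 0.29 for 5 µM at T4, 0.45 for 0.5 µM at T20, -0.33 for T16 against T0, -0.28 for T20 against T4 vehicle), TEF (0.42 for 5 µM at T20) and NFIL3 (0.62 for the doses at T20) no longer passed. Replicate numbers did not pair the samples: deviations of same-numbered arrays from their group means correlated between -0.17 and 0.17 over 28 pairs of groups, and in 0 of these pairs were all over 0.1. The replicate block changed no other member's call. With 1 array left out, 371 of 420 values of the members kept their direction and side, and the differences that did not in every fit ranged as follows. TEF ran from -0.020 to 0.16 for 0.5 µM at T4, from 0.32 to 0.52 for 5 µM at T20, from -0.055 to 0.13 for 0.5 µM between T20 and T4. DBP ran from -0.27 to 0.10 for 0.5 µM at T4, from -0.19 to 0.21 for 5 µM at T4, from -0.25 to 0.040 for 0.5 µM at T20, from -0.064 to 0.25 for the doses at T4, from -0.23 to 0.18 for 0.5 µM between T20 and T4, from -0.14 to 0.50 for T16 against T0, from -0.56 to 0.074 for T20 vehicle against T16. CSNK1E ran from 0.20 to 0.40 for 5 µM at T4, from -0.073 to 0.047 for the doses at T20, from -0.080 to 0.12 for 0.5 µM between T20 and T4, from -0.28 to -0.078 for T4 vehicle against T0, from -0.37 to -0.16 for T20 against T4 vehicle. NFIL3 ran from 0.45 to 0.57 for 0.5 µM at T20, from 0.51 to 0.68 for the doses at T20, from -0.037 to 0.090 for T20 against T4 vehicle. CSNK1D ran from -0.27 to -0.11 for T4 vehicle against T0.

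The numbers of genes that passed were 1148 for 0.5 µM at T4, 2594 for 5 µM at T4, 1267 for 0.5 µM at T20, 3067 for 5 µM at T20, 52 for the doses at T4, 289 for the doses at T20, 1 for 0.5 µM between T20 and T4, 67 for 5 µM between T20 and T4, 2062 for T4 vehicle against T0, 3716 for T16 against T0, 2683 for T20 vehicle against T16, 1656 for T20 against T4 vehicle. Of 156 such numbers under alternatives other than a left-out array, 56 moved by over 1.5 times. With arrays centred on the median gene value, the number was 31 for the doses at T4, 0 for 0.5 µM between T20 and T4. With values as deposited, the number was 0 for 0.5 µM between T20 and T4. With cyclic loess, the number was 2 for 0.5 µM between T20 and T4. With arrays centred on the poly-A controls, the number was 654 for 0.5 µM at T4, 3129 for 0.5 µM at T20, 9689 for 5 µM at T20, 14 for the doses at T4, 5470 for the doses at T20, 0 for 0.5 µM between T20 and T4, 1421 for 5 µM between T20 and T4, 1075 for T4 vehicle against T0, 6051 for T20 vehicle against T16, 942 for T20 against T4 vehicle. With the mean over probe sets, the number was 21 for the doses at T4, 161 for the doses at T20, 0 for 0.5 µM between T20 and T4, 32 for 5 µM between T20 and T4. With the median over probe sets, the number was 293 for 0.5 µM at T4, 850 for 5 µM at T4, 408 for 0.5 µM at T20, 1369 for 5 µM at T20, 3 for the doses at T4, 49 for the doses at T20, 0 for 0.5 µM between T20 and T4, 14 for 5 µM between T20 and T4, 674 for T4 vehicle against T0, 1641 for T16 against T0, 932 for T20 vehicle against T16, 386 for T20 against T4 vehicle. With only probe sets above the median, the number was 2 for 0.5 µM between T20 and T4. Without the filter, the number was 715 for 0.5 µM at T4, 790 for 0.5 µM at T20, 7 for the doses at T4, 139 for the doses at T20, 0 for 0.5 µM between T20 and T4, 31 for 5 µM between T20 and T4, 1038 for T20 against T4 vehicle. With the stricter filter, the number was 3 for 0.5 µM between T20 and T4. With the replicate block, the number was 20 for the doses at T4, 0 for 0.5 µM between T20 and T4. With a trended and robust variance prior, the number was 80 for the doses at T4, 3 for 0.5 µM between T20 and T4. With array weights, the number was 232 for the doses at T4, 3 for 0.5 µM between T20 and T4, 102 for 5 µM between T20 and T4. With only the groups compared in the fit, the number was 720 for 0.5 µM at T4, 546 for 0.5 µM at T20, 1982 for 5 µM at T20, 0 for the doses at T4, 12 for the doses at T20, 31 for 5 µM between T20 and T4, 1107 for T4 vehicle against T0, 2298 for T16 against T0, 1511 for T20 vehicle against T16, 815 for T20 against T4 vehicle. With 1 array left out it ran from 756 to 849 for 0.5 µM at T4, from 5 to 36 for the doses at T4, from 143 to 322 for the doses at T20, from 0 to 2 for 0.5 µM between T20 and T4, from 37 to 80 for 5 µM between T20 and T4. The cause of these changes was not tested. With 3 arrays per group the median SE of a difference was 0.14 (log2) over all tested genes, and TEF was under the filter value in 4 of the 8 groups.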
